A study of Mus musculus with 13 samples.

Results

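Microglia, the resident macrophages of the brain, depend on the receptor CSF1R for survival and proliferation. CSF1R is a tyrosine kinase with 2 ligands that share little sequence: CSF1, also called M-CSF, which glia and other cells secrete, and IL-34, which in the forebrain is made mainly by neurons. The receptors for GM-CSF and G-CSF belong to a separate cytokine receptor family that has no kinase of its own and signals through JAK kinases and STAT factors. The GM-CSF receptor pairs the ligand-specific alpha chain CSF2RA with the beta common chain CSF2RB, which the IL-3 and IL-5 receptors also use. Mice carry in addition Csf2rb2, whose product is a beta chain particular to IL-3. CSF3R binds G-CSF and is best known from neutrophils and their precursors.

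The 7 genes described here are the ligands Csf1 and Il34 and the receptor chains Csf1r, Csf3r, Csf2ra, Csf2rb and Csf2rb2. They were chosen by name from the gene annotation of the count table, out of 55401 genes, and each was followed in every library. The choice of these genes, and of the gene lists below, was made with earlier results of these data known. All 7 passed the filter on low counts, as did 14985 genes in all. Csf2rb and Csf2rb2 passed it through the cuprizone and recovery libraries, since no more than 1 of the 5 control libraries reached 10 counts for either gene, so that their rise is partly built into their being tested.

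The 13 libraries were bulk RNA-seq of frozen brain hemispheres of male mice, C57BL/6J by the study's methods, which also state that the mice were perfused with saline. Control mice (CTL, n = 5) received normal chow for 6 weeks. Cuprizone mice (CPZ, n = 4) were fed 0.3% cuprizone, a copper chelator that kills oligodendrocytes and so strips myelin, for 4 weeks. Recovery mice (RCV, n = 4) had the same 4 weeks of 0.3% cuprizone and were then returned to normal chow for 2 weeks, during which myelin is formed again. The labels give an age of 6 to 8 weeks, while the study's methods give an older age, so the age is not settled here. The labels also state 4 CTL, 3 CPZ and 3 RCV mice, fewer than the libraries analysed here. The study also describes all 13 as samples of the 3 groups, without saying that each came from its own mouse, so p-values measure the spread between these libraries, part of which may be technical. CPZ mice were killed at 4 weeks and the other groups at 6 weeks, so that diet and time in the study cannot be told apart in the CPZ comparisons. The labels name no transgene or drug, although RCV titles carry the prefix "Veh".

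Each library held between 4605100 and 8197289 estimated counts. Neuronal markers bore out that the tissue was brain, but cannot show which parts of a hemisphere were taken. Their summed level was 4647 to 5871 CPM (counts scaled by library size to a common total) over all libraries. Of 5 cerebellar markers, Pcp2 and Gabra6 had at most 2 and 4 counts in a library and Cbln3 at most 13. Cbln1 and Zic1 had up to 286 and 692 counts. All 7 markers of mature oligodendrocytes were called lower in CPZ than in CTL, with a median log2 fold change of -1.51. Of all genes tested 2.5% were called lower there. In RCV against CTL none of these markers was called by edgeR, by DESeq2 or by limma-voom or had an unadjusted p under 0.05. Over all genes tested edgeR called 0.374% in RCV against CTL. The choroid plexus markers ranged from 13.1 to 1426 CPM among RCV libraries and from 416 to 2737 CPM among CTL libraries. Striatal markers ranged from 94.3 to 1155 CPM among RCV, from 230 to 1376 among CTL and from 352 to 812 among CPZ libraries. Whether the parts of the hemisphere taken differed between libraries was not tested. A hemisphere mixes cell types, and more cells of a type cannot be told apart from more RNA per cell in any value below. The 15 microglial markers rose in CPZ against CTL, each of them past the test, where 7.66% of all genes tested were called higher. Their summed level was 1342 to 2949 CPM in CPZ against 345 to 413 CPM in CTL and 541 to 757 CPM in RCV. In RCV against CTL 2 of the 15 were called by edgeR, 9 by DESeq2 and 1 by limma-voom.

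The 2 beta chains are shown first as sequence, because their likeness bears on how their counts can be read. In the mouse genome (GRCm38) Csf2rb lies on chromosome 15 at chr15:78325752-78353847 on the plus strand, and Csf2rb2 at chr15:78282507-78305721 on the minus strand, with 20030 bases between them. Their coding sequences were identical at 95.2% of 2628 aligned bases. The first 120 coding bases of each, read from the GENCODE transcripts, differ at 4 positions, which are in capitals here.
Csf2rb: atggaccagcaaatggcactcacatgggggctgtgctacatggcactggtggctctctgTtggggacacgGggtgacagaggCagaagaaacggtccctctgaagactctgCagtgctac
Csf2rb2: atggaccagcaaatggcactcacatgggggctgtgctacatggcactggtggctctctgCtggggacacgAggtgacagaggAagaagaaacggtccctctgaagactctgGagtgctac
Reads were 50 bases long, and 26% of the runs of 50 bases in the coding sequence of Csf2rb also occur in Csf2rb2. The deposited counts of both genes were not whole numbers in 9 of 13 libraries, while their sum was whole, within 0.011, in every library. The reads that fit both genes had thus been divided between them by the authors' quantification, and the split between the chains is uncertain. Their sum is given beside each chain.

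The other loci were searched in the same way. Csf1 (chr3:107741048-107760469, minus strand) and Csf2ra (chr19:61223957-61228429, minus strand) had no run of 50 exon bases in common with another gene. Il34 (chr8:110741829-110805924, minus strand) overlaps 75 exon bases of the antisense gene Gm15895, which had at most 2 counts in a library. Csf1r (chr18:61100598-61132149, plus strand) shares 873 exon bases with Hmgxb3, a gene on the opposite strand that had 253 to 396 counts per library and a log2 fold change of -0.16 in CPZ against CTL (adjusted p = 0.23 by edgeR's quasi-likelihood test). The deposited counts of Csf1r were whole numbers in all 13 libraries, unlike those of the beta chains, so they show no division of reads with Hmgxb3. Those of Csf1, Il34, Csf2ra and Csf3r were whole in all 13 as well. Whether the counting used strand is not given in the sources used here, and how reads from the shared bases were assigned was not tested. Csf3r (chr4:126024550-126044440, plus strand) shares 395 of its 3676 runs of 50 exon bases with other genes, 325 of them with AC105061.2, beside 824 of 5776 for Csf1r, 894 of 7268 for Csf2rb and 916 of 4836 for Csf2rb2. How many reads came from shared runs was not measured.

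Csf1r, the receptor for both CSF1 and IL-34, rose 3.55-fold in CPZ. It read 81.3, 101, 85.3, 89.9 and 78.3 CPM in CTL, 389, 357, 224 and 265 CPM in CPZ and 141, 151, 124 and 143 CPM in RCV. The 3 groups did not overlap, and RCV lay between the others. The means were 87.1 ± 8.80 (SD, n = 5), 309 ± 77.1 (SD, n = 4) and 139.9 ± 11.2 CPM (SD, n = 4). In edgeR's quasi-likelihood test, with p-values adjusted over all genes tested, the log2 fold change was 1.83 (SE 0.14, adjusted p = 1.46e-06) in CPZ against CTL and 1.14 (SE 0.15, adjusted p = 0.00048) in CPZ against RCV. In RCV against CTL it was 0.68 (SE 0.14) and missed the threshold of 0.05 (adjusted p = 0.067), although all 4 RCV libraries lay above all 5 CTL libraries. Of 23 alternative settings 4 called that comparison. These were a fit of the 2 groups alone (adjusted p = 0.0024), DESeq2 (adjusted p = 0.00054), and edgeR without CPZ replicate 1 (adjusted p = 0.024) or CPZ replicate 3 (adjusted p = 0.0078). The others missed it, among them limma-voom (adjusted p = 0.085) and edgeR without any single CTL or RCV library (adjusted p of 0.073 to 0.279).

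Csf3r, the G-CSF receptor, rose 5.42-fold in CPZ. It read 4.35, 7.5, 6.45, 7.03 and 5.50 CPM in CTL, 42.6, 37.7, 23.4 and 30.2 CPM in CPZ and 10.8, 15.1, 10.8 and 13.4 CPM in RCV. No library of one group fell in the range of another. The log2 fold change was 2.44 in CPZ against CTL (SE 0.19, adjusted p = 7.28e-07) and 1.42 in CPZ against RCV (SE 0.19, adjusted p = 0.0004). Csf3r was the 1 gene of the 7 called in RCV against CTL, at a log2 fold change of 1.02 (SE 0.21, adjusted p = 0.048). That call was lost on leaving out any single CTL or RCV library, with adjusted p between 0.062 and 0.229, without CPZ replicate 2 or 4 (adjusted p of 0.0595 and 0.0651), and with limma-voom (adjusted p = 0.293).

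Csf3r is a gene of neutrophils in blood and marrow, so the neutrophil markers were read beside it. Their summed level was 0 to 0.646 CPM in the CPZ libraries, where Csf3r was highest, and 0 to 12.2 CPM in CTL and 0.648 to 16.6 CPM in RCV. Camp, Ltf, Ly6g, Ngp and Retnlg, 5 of the 9 markers, were at 0 in all 4 CPZ libraries. The monocyte markers summed to at most 1.11 CPM in CPZ, 2.55 CPM in CTL and 2.64 CPM in RCV. The 7 markers of border macrophages, such as Mrc1 and Cd163, summed to 4.21 to 10.8 CPM in CTL, 6.84 to 11.8 CPM in CPZ and 5.67 to 12.4 CPM in RCV, and neither Mrc1 nor F13a1, the 2 that could be tested, was called by edgeR, DESeq2 or limma-voom or had an unadjusted p under 0.05. T and NK cell markers summed to at most 1.62 CPM in any library.

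Csf2rb, the beta common chain, had the largest fold change of the 7 genes, 11.2-fold in CPZ, from a low base. Csf2rb read 0.952, 1.5, 1.08, 1.38 and 0.734 CPM in CTL, 17.9, 15.1, 7.35 and 11.2 CPM in CPZ and 2.20, 4.21, 1.92 and 5.42 CPM in RCV. CTL libraries held 4 to 10 counts each, CPZ libraries 53 to 124 and RCV libraries 10 to 26, and the groups did not overlap. The log2 fold change was 3.48 in CPZ against CTL (SE 0.33, adjusted p = 3.81e-06), 1.93 in CPZ against RCV (SE 0.31, adjusted p = 0.0014) and 1.56 in RCV against CTL (SE 0.40, adjusted p = 0.15). DESeq2 called the last of these (adjusted p = 0.018). In the limma fits of log2 of TPM plus 1 the CPZ value was 2.39, and with 0.1 added in place of 1 it was 3.30, since a pseudocount lowers the fold of a gene near 0.

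Csf2rb2, the IL-3 beta chain, read 1.36, 0.9, 0.461, 1.07 and 0.917 CPM in CTL, 11.4, 7.29, 3.61 and 6.20 CPM in CPZ and 1.91, 2.43, 3.27 and 2.6 CPM in RCV. These groups were also apart from each other. Its log2 fold change was 2.88 in CPZ against CTL (SE 0.34, adjusted p = 2.19e-05), 1.49 in CPZ against RCV (SE 0.32, adjusted p = 0.0097) and 1.39 in RCV against CTL (SE 0.39, adjusted p = 0.23). The CPZ value was 1.57 on log2 of TPM plus 1 and 2.44 with 0.1 added.

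Summing the 2 chains removes the uncertain split. The pair held 9 to 17 counts in CTL libraries, 79 to 203 in CPZ libraries and 27 to 41 in RCV libraries. As 1 feature the pair had a log2 fold change of 3.25 in CPZ against CTL (adjusted p = 2.05e-06), 1.75 in CPZ against RCV (adjusted p = 0.0011) and 1.49 in RCV against CTL (adjusted p = 0.077), so its calls were those of the separate chains. Csf2rb took 61.2 to 67.5% of the pair's counts in CPZ libraries, 43.7 to 65.5% in CTL and 37.8 to 67.6% in RCV.

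Csf2ra, the alpha chain that gives the GM-CSF receptor its ligand, had the smallest fold change of the receptors. It read 22.2, 23.0, 19.4, 25.2 and 17.4 CPM in CTL, 39.9, 34, 26.6 and 29.2 CPM in CPZ and 21.6, 23.2, 24.4 and 22.1 CPM in RCV. The CPZ libraries lay above all others, and the RCV libraries fell within the CTL range. The log2 fold change was 0.59 in CPZ against CTL (SE 0.12, adjusted p = 0.0031), 0.51 in CPZ against RCV (SE 0.13, adjusted p = 0.024) and 0.09 in RCV against CTL (95% interval -0.16 to 0.33, adjusted p = 0.99). In TPM, a measure of transcript share which the authors corrected for transcript length, the CPZ libraries read 39.6 to 89.1 and overlapped the CTL libraries at 31.1 to 47.1, and no limma fit of TPM called Csf2ra in either CPZ comparison (adjusted p of 0.127 to 0.214 against CTL and 0.0909 to 0.16 against RCV). The edgeR call against RCV was also lost without CPZ replicate 1 or 2 or RCV replicate 1 or 4 (adjusted p of 0.0504 to 0.0898).

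**Figure D1:**
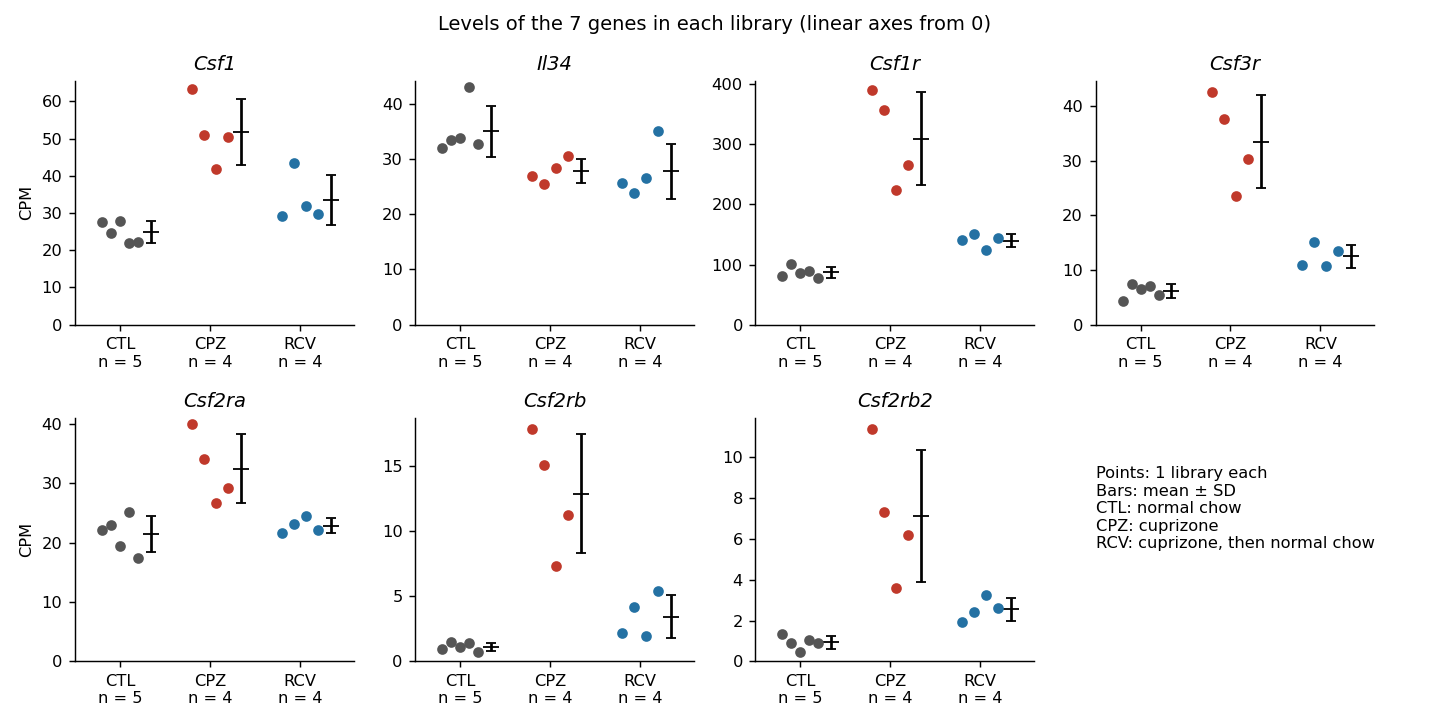
CPM of each gene by group, with 1 point for each library and bars for the mean ± SD, on linear axes that start at 0. CPZ libraries stand above CTL libraries for every gene but Il34, whose CPZ libraries at 25.5 to 30.5 CPM lie below the CTL libraries at 32.1 to 43.1 CPM.

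Csf1 rose 2.07-fold in CPZ. It read 27.6, 24.6, 28.0, 21.9 and 22.2 CPM in CTL, 63.4, 51.1, 41.9 and 50.4 CPM in CPZ and 29.2, 43.4, 31.8 and 29.7 CPM in RCV. CPZ and RCV libraries lay above the CTL range, and RCV replicate 2 reached into the CPZ range. The log2 fold change was 1.05 in CPZ against CTL (SE 0.13, adjusted p = 5.79e-05), 0.62 in CPZ against RCV (SE 0.14, adjusted p = 0.013) and 0.43 in RCV against CTL (SE 0.14, adjusted p = 0.38). The call against RCV was lost in the limma fits of TPM (adjusted p of 0.175 to 0.273) and without RCV replicate 1 (adjusted p = 0.055). Of 7 astrocyte markers, read beside it, 4 were higher in CPZ than in CTL by edgeR, Gfap at a log2 fold change of 2.43, Aqp4 at 0.54, Aldh1l1 at 0.39 and Slc1a3 at 0.36. Of all genes tested 7.66% were called higher there. Gfap at 1.80 and Aqp4 at 0.44 were called in RCV against CTL, where 0.36% of all genes were called higher. The summed level of the 7 astrocyte markers was 4150 to 4584 CPM in CTL, 4871 to 5873 in CPZ and 4893 to 5524 in RCV. Their part in the level of Csf1 was not tested.

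Il34 was the 1 gene of the 7 with a lower mean in CPZ than in CTL. It read 32.1, 33.5, 33.8, 43.1 and 32.6 CPM in CTL, 26.9, 25.5, 28.4 and 30.5 CPM in CPZ and 25.7, 23.8, 26.6 and 35.1 CPM in RCV. The edgeR fit of all 13 libraries called it in no comparison. All 4 CPZ libraries and 3 of the 4 RCV libraries lay below the lowest CTL library. The log2 fold change in CPZ against CTL was -0.33 (SE 0.11, unadjusted p = 0.00995), which missed the threshold after adjustment over all genes tested by edgeR (adjusted p = 0.079). In RCV against CTL it was -0.34 (SE 0.12, adjusted p = 0.42), and in CPZ against RCV it was 0.01 (95% interval -0.23 to 0.25, adjusted p = 0.98). The CPZ value was called without RCV replicate 4 (adjusted p = 0.038), and in TPM the CPZ libraries at 34.7 to 51.3 overlapped the CTL libraries at 46.1 to 65.8. The 8 neuronal markers, read beside it, had a median log2 fold change of -0.07 in CPZ and -0.08 in RCV, with no call from edgeR, DESeq2 or limma-voom and none at an unadjusted p under 0.05. Markers of single regions varied more between libraries. Striatal markers summed to 230 to 1376 CPM in CTL, 352 to 812 in CPZ and 94.3 to 1155 in RCV. Hippocampal markers summed to 142 to 237, 154 to 192 and 155 to 280 CPM. The part that regional content had in the level of Il34 was not tested.

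Set against each other on the length-corrected scale, the ligands drew closer in CPZ. In CTL libraries Csf1 made up 26.9, 19.6, 25.7, 15.8 and 21.1% of the summed TPM of Csf1 and Il34. It made up 52.4, 42.3, 34.7 and 36.8% in CPZ and 29.5, 40.5, 27.3 and 32.5% in RCV. Both groups lay above the CTL range, and Il34 remained the larger part in every library except CPZ replicate 1. The summed ligand level overlapped between groups, at 70.5 ± 5.77 TPM in CTL (SD, n = 5), 72.5 ± 6.44 in CPZ (SD, n = 4) and 64.0 ± 8.00 in RCV (SD, n = 4). Divided by the receptor, there were 1.29 ± 0.205 ligand TPM per Csf1r TPM in CTL, 0.364 ± 0.121 in CPZ and 0.684 ± 0.199 in RCV (SD, n = 5, 4 and 4). These ratios are descriptions without a test, and on the CPM scale, which does not correct for length, the log2 ratio of Csf1 to Il34 was 0.88 in CPZ in place of -0.50.

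**Figure D2:**
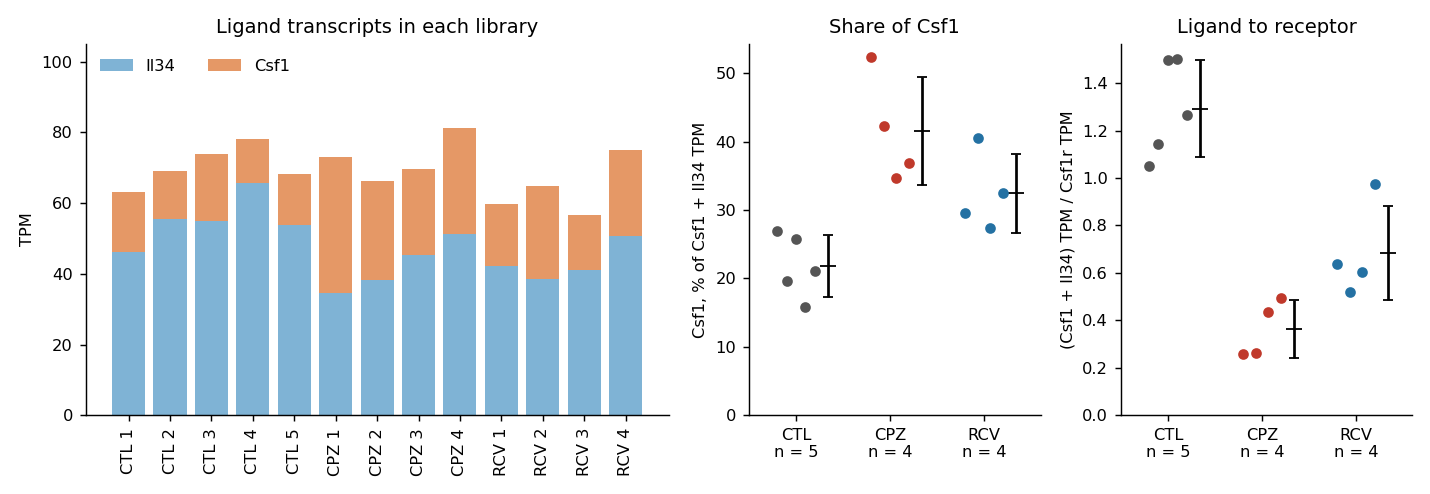
Left, TPM of Il34 and Csf1 stacked for each of the 13 libraries, middle, the percent of that sum held by Csf1, and right, the sum divided by the TPM of Csf1r, with points for libraries and bars for mean ± SD. The share of Csf1 runs from 15.8 to 26.9% in CTL and from 34.7 to 52.4% in CPZ, and the ligand to receptor ratio from 1.05 to 1.5 in CTL and from 0.26 to 0.496 in CPZ.

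Ordered by TPM within CTL, Il34 at 55.2 ± 7.03 and Csf1r at 55.2 ± 4.94 did not differ beyond their spread, and Csf2ra followed at 38.2 ± 6.43 with a range that touched that of Il34. Csf1 at 15.2 ± 2.69 and Csf3r at 5.29 ± 0.562 stood apart from their neighbours. Csf2rb at 1.01 ± 0.958 and Csf2rb2 at 0.696 ± 0.329 overlapped each other (SD, n = 5 for each). The mean of Csf2rb rested on CTL replicate 3 at 2.72 TPM, and without it was 0.583 ± 0.068 (SD, n = 4), below the 0.723 ± 0.374 of Csf2rb2 over the same libraries. In CPZ the order was Csf1r at 214 ± 61.8, Csf2ra at 59.2 ± 21.7, Il34 at 42.4 ± 7.42, Csf1 at 30.1 ± 5.95, Csf3r at 26.2 ± 7.10, Csf2rb at 8.90 ± 1.56 and Csf2rb2 at 4.10 ± 1.37 (SD, n = 4 for each). There Csf1r, Csf2rb and Csf2rb2 stood clear of their neighbours, and the ranges of the genes between them overlapped from one to the next. TPM divided by CPM varied between libraries for a single gene, from 0.487 to 0.82 for Csf1 and from 1.13 to 2.23 for Csf2ra, where TPM divides by the transcript length that the quantification assigned in that library.

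Counted together, 6 of the 7 genes passed the test with higher levels in CPZ and none with lower ones, relative to CTL, where 7.66% of all genes tested were called higher, 2.5% lower and 10.2% in either direction. Without the 2 beta chains that owe their testing to the high groups, 4 of 5 were called. Both chains are also among the genes counted below as not overlapping in CPM in all 3 comparisons and as called in CPZ against RCV. The medians below include them too, so these values carry the same limit. All 7 genes had CPZ and CTL libraries that did not overlap in CPM, against 13.1% of all genes tested, and 5 of 7 in TPM. In RCV against CTL 1 of 7 was called, where 0.36% of all genes were called higher, 0.0133% lower and 0.374% in either direction, and 5 of 7 did not overlap, against 2.9%. In CPZ against RCV 6 of 7 were called higher, where 5.13% of genes were called higher, 1.88% lower and 7.01% in either direction, and 5 of 7 did not overlap, against 13.2%. The median log2 fold changes of the 7 genes in these 3 comparisons were 1.83, 0.68 and 1.14, beside -0.02, -0.0044 and -0.0066 for all genes tested. Each pair of comparisons shares a group of libraries, so the 3 sets of values are not independent of each other. The 7 genes and the gene lists below were chosen with earlier results of these data known. Counts of calls beside the shares of all genes are therefore descriptions and not a test of the genes as a set.

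**Figure D3:**
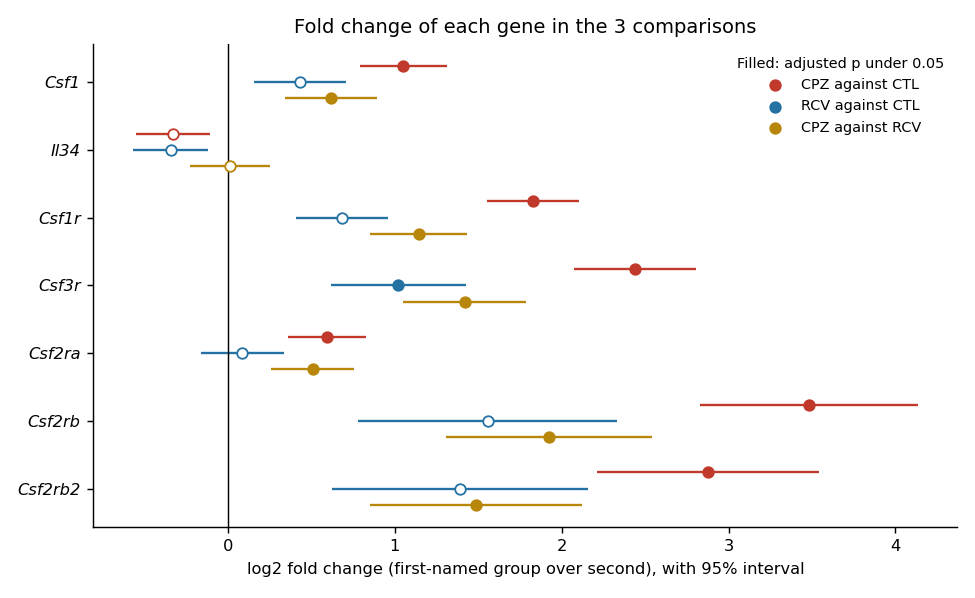
Log2 fold change of each gene with its 95% interval (1.96 standard errors) in the 3 comparisons, filled where the adjusted p is under 0.05. The largest is 3.48 for Csf2rb in CPZ against CTL, and in RCV against CTL the 1 filled point is Csf3r at 1.02.

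How much of the CPZ change remained in RCV was expressed for each RCV library as a share of the mean log2-CPM difference between CPZ and CTL. Csf1r kept 0.392, 0.443, 0.287 and 0.402 of its change in the 4 libraries. Csf3r kept 0.341, 0.536, 0.337 and 0.468, and Csf1 kept 0.228, 0.775, 0.344 and 0.253. The mean shares were 0.413 ± 0.208 for Csf2rb, 0.486 ± 0.114 for Csf2rb2 and 0.17 ± 0.134 for Csf2ra (SD, n = 4 for each). The lowest mean was that of Csf2ra, whose range of 0.0342 to 0.34 overlapped those of the other genes except Csf2rb2. These shares depend on the scale, and on mean CPM that of Csf1r was 0.238. The mean log2-CPM of the 15 microglial markers, called the microglia score here, kept 0.338 ± 0.0689.

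The spread within CPZ followed the microglia score. CPZ replicate 3 had the lowest score of its group, 5.97, and the lowest level of all 5 receptors and of Csf1 in the group, while CPZ replicate 1 had the highest score, 7.08, and the highest levels of these same genes. Csf1r moved less than the median marker. Its log2-CPM exceeded the score by 2.36 ± 0.117 in CTL, 1.65 ± 0.155 in CPZ and 2.19 ± 0.081 in RCV (SD, n = 5, 4 and 4), and no CPZ library reached the lowest of the other libraries. Among the markers themselves the log2 fold change in CPZ against CTL ran from 0.97 for P2ry12 and 1.18 for Tmem119, genes of resting microglia, to 3.68 for Ly86, with a median of 2.70. The log2-CPM of Csf3r minus the score was -1.42 ± 0.283 in CTL, -1.55 ± 0.161 in CPZ and -1.27 ± 0.113 in RCV, and the CTL range held the whole of the CPZ range. For Csf2rb the same difference was -3.60 ± 0.302 in CTL and -2.94 ± 0.0977 in CPZ. For Csf2rb2 it was -3.82 ± 0.38 and -3.80 ± 0.248, and the split between the chains is uncertain. The prior count of 2 in log2-CPM also lifts libraries of few counts, as in CTL, and so shrinks the change of both chains. In edgeR their log2 fold changes in CPZ against CTL were 3.48 and 2.88. For Csf1 the log2-CPM minus the score was 0.56 ± 0.223 in CTL and -0.91 ± 0.332 in CPZ. The part that the number of microglia had in these levels was not tested.

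**Figure D4:**
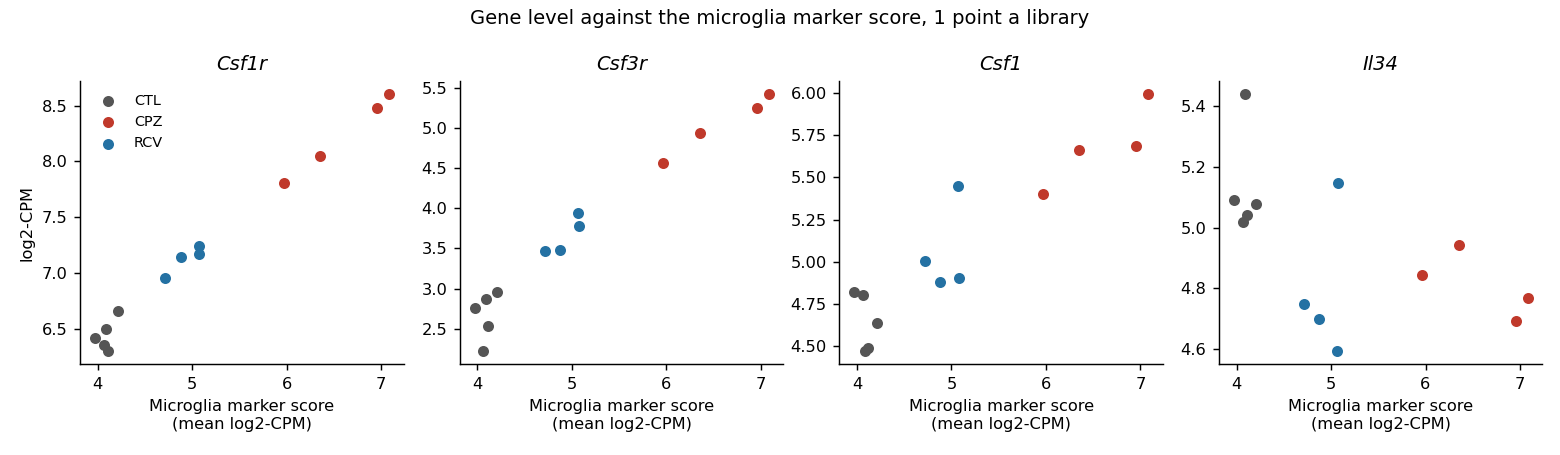
Log2-CPM of 4 genes against the microglia score (mean log2-CPM of 15 markers), with 1 point for each library. Csf1r and Csf3r climb with the score between groups and within CPZ, and less steadily within CTL and RCV. RCV replicate 2 stands high for Csf1, and Il34 is highest in CTL replicate 4 at 43.1 CPM.

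For each gene the tested genes with the most similar log2-CPM over the 13 libraries were found by Pearson correlation, given as a description because libraries of a group share their treatment. The value after removal of the group means follows in each case. For Csf1r these were the complement gene C1qc (0.998 and 0.98), Ly86 (0.998 and 0.977) and the actin regulator Nckap1l (0.996 and 0.956). For Csf3r they were the lysosomal gene Cd68 (0.996 and 0.945), Lgals3bp (0.993 and 0.911) and C1qc (0.99 and 0.885). For Csf2rb they were C1qb (0.99 and 0.904), Trem2 (0.989 and 0.893) and Cd68 (0.988 and 0.919), and for Csf2rb2 they were Gm8995 (0.976 and 0.809), Mlxipl (0.972 and 0.789) and Lgals9 (0.97 and 0.799).

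Csf2ra had other neighbours. Among the genes most like it were Rpl10a (0.969 and 0.918) and Rpl4 (0.948 and 0.836), which encode proteins of the large ribosomal subunit. Both rose slightly in CPZ against CTL, with log2 fold changes of 0.40 and 0.25 (adjusted p of 0.00069 and 0.01 by edgeR), beside 0.59 for Csf2ra. Of all genes tested 7.66% were called higher there. Both were picked for likeness to Csf2ra in these same libraries, so their rise follows in part from the choice. The likeness of Csf2ra to Csf1r was 0.886, and 0.732 after removal of group means.

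The ligands also differed in this respect. For Csf1 the most similar genes were the kinase gene Bmp2k (0.971 and 0.924), the transcription factor gene Maff (0.967 and 0.831) and the tetraspanin gene Cd9 (0.965 and 0.78), all 3 called higher in CPZ than in CTL. For Il34 they were Syt5, a synaptotagmin gene (0.916 and 0.914), Dmtn, which encodes the actin-binding protein dematin (0.909 and 0.945), and the calcium channel subunit gene Cacnb1 (0.899 and 0.846). None of these 3, picked in the same way for likeness to Il34, was called in CPZ against CTL. Their log2 fold changes were -0.29, -0.17 and -0.27, beside -0.33 for Il34. Csf1 and Il34 themselves correlated at -0.662 over the libraries and at -0.50 after removal of group means.

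The remaining ligands and chains of these receptors were scarce. Csf2, Csf3 and Il3, the genes for GM-CSF, G-CSF and IL-3, had 0 counts in all 13 libraries, which allows at most 0.366 to 0.651 CPM in a single library (3 counts, counting error only). Il5 had at most 2 counts in a library and Il5ra at most 1. Il3ra, the alpha chain of the IL-3 receptor, averaged 1.76 CPM in CTL, 4.00 in CPZ and 2.39 in RCV, and its log2 fold change of 1.2 in CPZ against CTL missed the threshold (SE 0.40, adjusted p = 0.074 by edgeR). Of the other proteins reported to bind IL-34, neither Ptprz1, a phosphatase gene of astrocytes and oligodendrocyte precursors, nor the syndecan gene Sdc1 was called in any comparison. Their log2 fold changes in CPZ against CTL were 0.06 and 0.78 (adjusted p of 0.72 and 0.12).

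Of 15 genes for signalling partners of CSF1R, 9 passed the test with higher levels in CPZ than in CTL and none with lower ones, with a median log2 fold change of 0.54, where 7.66% of all genes tested were called higher and 2.5% lower. Tyrobp, the adaptor DAP12 that pairs with TREM2 and links CSF1R to SYK, had the largest value of 3.46 (SE 0.28, adjusted p = 4.8e-06). The phosphatase genes Ptpn6 and Inpp5d had 2.84 and 1.83, the exchange factor gene Vav1 had 2.36, and Plcg2, Syk and the adaptor gene Sla had 1.72, 1.45 and 1.14. Gab2 and Shc1, adaptors found in many cell types, were called at 0.52 and 0.54. The widely expressed Grb2, Sos1, Cbl and Pik3r1 were not called, with values from -0.18 to 0.07, nor were Pik3cd at 0.38 and Gab3 at 0.28. In RCV against CTL 0 of the 15 were called by edgeR and by limma-voom, 1 by DESeq2, and 7 had an unadjusted edgeR p under 0.05 (median log2 fold change 0.26), where 0.374% of all genes were called. In CPZ against RCV 7 were called higher (median 0.37), the 9 named without Gab2 and Shc1, where 5.13% of all genes were called higher.

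The JAK-STAT list held genes downstream of the GM-CSF and G-CSF receptors. Of 11 genes 10 were tested, and 2 passed with higher levels in CPZ than in CTL, Socs3 at 1.75 (SE 0.28, adjusted p = 0.00046), an inhibitor induced by STAT3, and Stat3 itself at 0.50 (SE 0.08, adjusted p = 0.00073). The share of 2 in 10 stands beside the 7.66% of all genes tested that were called higher. Jak1, Jak2, Tyk2, Stat5a, Stat5b, Cish, Pim1 and Bcl2l1 were not called, with values from -0.04 to 0.57. The median of the 10 was 0.12 in CPZ and 0.06 in RCV against CTL. Socs3 was the 1 gene called in CPZ against RCV, at 1.45 (adjusted p = 0.0071), where 5.13% of all genes were called higher. In RCV against CTL 0 of the 10 were called by edgeR, DESeq2 or limma-voom, with 3 at an unadjusted edgeR p under 0.05. Over all genes tested edgeR called 0.374% in RCV against CTL.

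Among 5 transcription factors known to act on Csf1r, 4 were called in CPZ against CTL, all higher, where 7.66% of all genes tested were called higher. These were Spi1, which encodes PU.1, at 2.42 (SE 0.29, adjusted p = 3.4e-05), Irf8 at 2.77, Runx1 at 2.64 and Cebpa at 1.75. The same 4 were called higher in CPZ than in RCV, by 1.58, 1.80, 1.81 and 1.06, where 5.13% of all genes were called higher. Cebpb had 0.65 in CPZ against CTL (adjusted p = 0.073). In RCV against CTL 0 of the 5 were called by edgeR and limma-voom and 1 by DESeq2, and Cebpa, Runx1, Spi1 and Irf8 had an unadjusted edgeR p under 0.05, with values from 0.70 to 0.97, beside 0.39 for Cebpb. Over all genes tested 0.374% were called in that comparison.

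**Figure D5:**
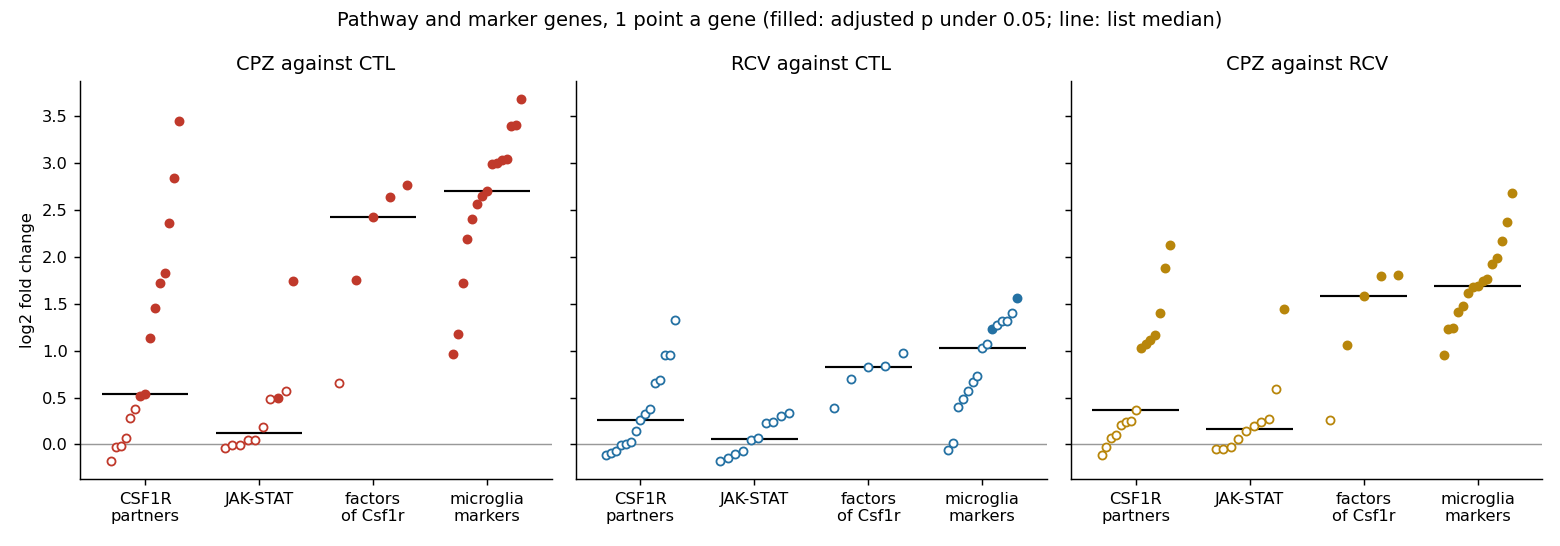
Log2 fold change of the genes of 3 pathway lists and of the microglial markers in each comparison, 1 point a gene, filled where the adjusted p is under 0.05, with a line at the list median. In CPZ against CTL 9 of 15 CSF1R partners, 2 of 10 JAK-STAT genes, 4 of 5 factors of Csf1r and 15 of 15 microglial markers are filled, and in RCV against CTL the 2 filled points are microglial markers. Over all genes tested 7.66% were called higher in CPZ against CTL and 0.36% in RCV against CTL.

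Promoter sequences are shown for 3 of the genes that rose together in CPZ, because PU.1, STAT and NF-kB sites are the kinds known from genes of these pathways. Each is the RefSeq window (GRCm38.p6) from 250 bases before to 50 bases after the start, written in the direction of the gene, with motif matches in capitals. The windows are chr3:107760420-107760719 for Csf1, chr4:126024409-126024708 for Csf3r and chr15:78305672-78305971 for Csf2rb2, on the minus, plus and minus strands.
Csf1: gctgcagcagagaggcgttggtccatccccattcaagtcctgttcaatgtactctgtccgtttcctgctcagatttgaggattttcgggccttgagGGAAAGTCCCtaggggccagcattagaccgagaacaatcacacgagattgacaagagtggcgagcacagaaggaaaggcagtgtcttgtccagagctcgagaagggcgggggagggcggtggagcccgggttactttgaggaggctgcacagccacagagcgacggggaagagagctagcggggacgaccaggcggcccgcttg
Csf3r: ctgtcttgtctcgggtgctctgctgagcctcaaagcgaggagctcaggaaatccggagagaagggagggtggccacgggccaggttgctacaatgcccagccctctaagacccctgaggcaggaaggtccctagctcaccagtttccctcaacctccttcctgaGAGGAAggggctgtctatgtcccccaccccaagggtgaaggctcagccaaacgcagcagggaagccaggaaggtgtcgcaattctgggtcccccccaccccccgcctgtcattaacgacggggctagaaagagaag
Csf2rb2: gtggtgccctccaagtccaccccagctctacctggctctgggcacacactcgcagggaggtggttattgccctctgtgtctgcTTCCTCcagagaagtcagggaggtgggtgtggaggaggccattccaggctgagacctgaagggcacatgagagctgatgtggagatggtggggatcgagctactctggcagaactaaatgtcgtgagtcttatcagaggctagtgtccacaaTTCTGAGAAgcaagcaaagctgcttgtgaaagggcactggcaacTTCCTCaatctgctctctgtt
The motifs were searched on both strands as GGG and TTTCC separated by any 2 bases for NF-kB, GAGGAA for the core of PU.1 and TTC and GAA separated by any 3 bases for STAT. Csf1 held 1 match to the NF-kB letters, which occur in 1.63% of 32851 promoter windows of the same length. Csf3r held 1 match to the PU.1 core, which occurs in 28.3% of windows. Csf2rb2 held 2 of these and 1 match to the STAT letters, which occur in 8.3% of windows. Csf2ra, whose window is not printed, held 2 adjoining PU.1 cores. A match of letters does not show that a factor binds there.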

How the data were processed

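Bulk RNA-seq of mouse brain hemispheres (Kapa mRNA HyperPrep libraries, HiSeq2500, paired reads of 50 bases) was analysed for 13 libraries. Per the labels, the submitters' processing notes name STAR, RSEM and the build mm10, with no versions. The authors deposited estimated counts per gene and TPM, which corrects for the length of transcripts and the depth of a library. For the count tests the estimates were rounded to integers, 92 spike-in rows were left out, and 14985 genes passed filterByExpr by group. CPM used TMM library sizes. The 3 groups were fitted together with edgeR 4.0.16 (quasi-likelihood, robust, R 4.3.3), with Benjamini-Hochberg adjustment over all genes tested and a threshold of 0.05. Log2-CPM used a prior count of 2. The script was tested on simulated data. Alternatives used DESeq2 1.42.0, limma 3.58.1 (voom, or log2 of TPM plus 1 or 0.1, with TPM of at least 1 in 4 libraries or no filter), other count filters, 2 groups only, a replicate block and each library left out. Intervals are 1.96 standard errors and cover the spread between libraries.

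Groups came from the labels. Replicate numbers in the titles were not treated as pairs. Replicates were compared in 22 pairs within groups, and none agreed within sampling noise (chi-square per gene of 4.45 to 17). Gene loci were read from GENCODE M21 (GRCm38), matched on gene identifiers. RefSeq promoter windows (GRCm38.p6) were read for Csf1, Csf2ra, Csf2rb2 and Csf3r, 4 of the 7 genes. Member windows on chromosome 18, where Csf1r lies, were left out by choice, so the absence of Csf1r is not a failed match. The members and the gene lists were chosen with earlier results of these data known. The genes named are all 7 members, genes of the lists where a count is broken down, and the 3 genes most correlated with each member. One item that this rule names is not reported here.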

Additional observations from a re-analysis of the deposited data

Results flagged for a closer look

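Il34 in CTL replicate 4 stood apart from the other CTL libraries, at 43.1 CPM against 33.8 CPM for the next highest, a gap of 0.843 of the group's range. Of 21 sets of libraries examined (7 genes in 3 groups) this was the 1 set with such a gap, and chance alone gives about 1 in 20. Without that library the log2 fold change of Il34 was -0.24 in CPZ against CTL (adjusted p = 0.18 by edgeR).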

How the results depend on the processing

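Across 28 alternative settings 565 of 648 recomputed values kept their direction and their side of the threshold or stayed within the spread between libraries (counts, within 1.5 times). In CPZ against CTL the calls of Csf1, Csf1r, Csf2rb, Csf2rb2 and Csf3r held under every setting that could test them. The TPM fits lowered the log2 fold changes of the beta chains, to 2.39 and 3.30 for Csf2rb and to 1.57 and 2.44 for Csf2rb2 (1 and 0.1 added). With at least 10 counts in every library Csf2rb and Csf2rb2 were not tested. The limma fits of TPM (pseudocount 1, pseudocount 0.1, and pseudocount 1 with no filter) lost Csf2ra, at log2 fold changes of 0.57, 0.58 and 0.57.

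In RCV against CTL 1 gene was called in the edgeR fit, and the count was 3 by DESeq2, 2 in the fit of 2 groups, and 0 with limma-voom, the 3 TPM fits, at least 10 counts in every library, and the replicate block. It ran from 0 to 2 with single libraries left out. The DESeq2 log2 fold changes of the added calls were 0.69 for Csf1r and 1.59 for Csf2rb, and the fit of 2 groups gave 0.68 for Csf1r. The log2 fold change of Csf3r where its call was lost was 1.03 with limma-voom, 0.86, 0.96 and 0.86 in the TPM fits, and 1.02 with the stricter filter. Csf2ra changed sign in the TPM fits, uncalled, at -0.15, -0.15 and -0.15. Genes not overlapping in TPM were 3 in place of 5.

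In CPZ against RCV the TPM fits lost Csf1 (0.52, 0.54 and 0.52) and Csf2ra (0.72, 0.73 and 0.72). The fit with pseudocount 0.1 lost Csf2rb (1.90) and Csf2rb2 (1.45), leaving 2 called, and the unfiltered fit lost Csf2rb (1.53), leaving 3. Il34, near 0 and uncalled, was -0.031, -0.032 and -0.031 in the 3 TPM fits. The cause of these changes was not tested.

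Leaving out single libraries gave ranges of log2 fold change of -0.38 to -0.24 for Il34 in CPZ against CTL, 0.64 to 0.74 for Csf1r and 0.91 to 1.10 for Csf3r in RCV against CTL, and, in CPZ against RCV, 0.52 to 0.77 for Csf1, -0.056 to 0.15 for Il34 and 0.40 to 0.60 for Csf2ra. The 4 of these that turned Il34 negative were -0.035, -0.025, -0.056 and -0.0056.

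Replicate numbers were not treated as pairs. Of 12 pairs of same-numbered libraries 3 had deviations from their group means correlated above 0.1 (range -0.199 to 0.136). All 3 joined a CTL and an RCV library (0.131, 0.136 and 0.112). Pairs with different numbers were not compared, so these values cannot decide whether the numbers pair libraries. With the replicate number as a block, Il34 was called in CPZ against CTL at -0.35 (adjusted p = 0.02 by edgeR) and Csf3r was lost in RCV against CTL at 0.98 (adjusted p = 0.12).

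The sum of Csf2rb and Csf2rb2 was chosen after seeing the data. The share of the CPZ change left in RCV was lower on mean CPM for Csf1r (0.238), Csf2rb (0.197), Csf2rb2 (0.261) and Csf3r (0.233), and turned to -0.263 for Csf2ra on log2 of TPM plus 0.1. The log2 ratio of Csf1 to Il34 was -0.49, 0.88 and 0.27 on CPM in CTL, CPZ and RCV. Depth limits the beta chains most, at 4 to 10 counts of Csf2rb in a CTL library.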
